A study of Mus musculus with 8 samples.

Results

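The genes described here handle adenosine outside the cell: Nt5e, which encodes the surface enzyme CD73, and 9 genes that act before or after it (Entpd1, Entpd2, Adora1, Adora2a, Adora2b, Slc29a1, Adk, Ada and Pnp). They were chosen by name, and all 10 had probes on the array, out of 22911 genes that the array's accessions could name. RNA came from photoreceptor cells of C57BL/6 mice at postnatal day 8, taken either from Lpcat1 heterozygous (HZ) or from Lpcat1 knockout (KO) animals, with 4 samples per genotype and no other treatment. Lpcat1 encodes an acyltransferase that makes saturated phosphatidylcholine, and both genotypes carry at least 1 deleted copy, so that neither group is wildtype. Animals homozygous for the retinal degeneration allele of Crb1 that some C57BL/6 stocks carry had been kept out. Retinas had been dissociated with trypsin, labelled with an antibody to CD73 and passed through a magnetic separator, so that the product of Nt5e had itself been used to pick the cells. Each sample was hybridized to a single-color mouse expression array, and the values below are log2 signals relative to the 75th percentile of the same array, called normalized log2 signals. Signals of different probes cannot be ranked against each other, so each gene is compared only with itself.

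CD73 stands at the end of a chain of surface enzymes. Cells release ATP, the NTPDases encoded by Entpd genes strip it to AMP, and CD73 removes the last phosphate to leave adenosine, which then acts on receptors encoded by the Adora genes. The nucleoside transporter encoded by Slc29a1 moves adenosine across the membrane, and inside the cell it is either rebuilt into AMP by adenosine kinase or broken down by adenosine deaminase and purine nucleoside phosphorylase. In the retina, CD73 is found on developing and mature rods, which is why it serves as a handle for isolating them.

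Facts of the whole series that touch these genes were the following. On each array, 59.5% to 64.6% of the 56605 probes exceeded the background clearly, and 34303 probes were tested. The single Lpcat1 probe did not separate the groups (-0.81 to -1.17 on the arrays labelled HZ, -0.85 to -1.16 on those labelled KO), and where it lies relative to the deleted part was not analysed here, so genotypes are given as labelled. Rod genes marked every array: all 14 rod markers could be tested, and their summed linear signal, with the 75th percentile of the array as 1, lay between 1036 and 1284 for HZ and between 986 and 1135 for KO. For the retinal pigment epithelium (RPE), 16 of 18 markers could be tested (not Lrat and Slc45a2), and KO means lay under HZ means for all 16, by a median of -1.29. For microglia, 11 of 12 tested markers had the higher mean in KO, by a median of 0.75 over the 12. In RNA of a mixed preparation, fewer cells of a type and less RNA per cell cannot be told apart. All arrays labelled KO lay in the same row of the slide and those labelled HZ in the other row, so slide row and genotype cannot be told apart either.

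Nt5e gave a bright signal on all 8 arrays, and its difference between the groups did not pass the test. Its normalized log2 signal was 4.27, 4.29, 4.36 and 4.39 on HZ replicates 1 to 4 and 4.05, 4.27, 4.25 and 4.29 on KO replicates 1 to 4. The groups overlapped, and KO replicate 1 lay lowest. The mean was 4.33 ± 0.056 (SD, n = 4) for HZ and 4.21 ± 0.11 (SD, n = 4) for KO, that is 20.1 and 18.6 times the 75th percentile of the array. The difference, KO minus HZ, was -0.11 (standard error 0.086, 95% interval -0.31 to 0.086, limma adjusted p = 0.739). As a ratio of KO to HZ this was 0.925, with an interval from 0.807 to 1.06. The KO array was lower than the HZ array with the same replicate number in 4 of 4 pairs, by 0.021 to 0.22, and a fit blocked on that number gave an adjusted p of 0.551. Over the alternatives the difference ran from -0.18 under quantile normalization to -0.023 under normexp background correction, and it was -0.056 when KO replicate 1 was left out. As the cells were selected by CD73, this level describes the selected cells and not the retina.

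**Figure D1:**
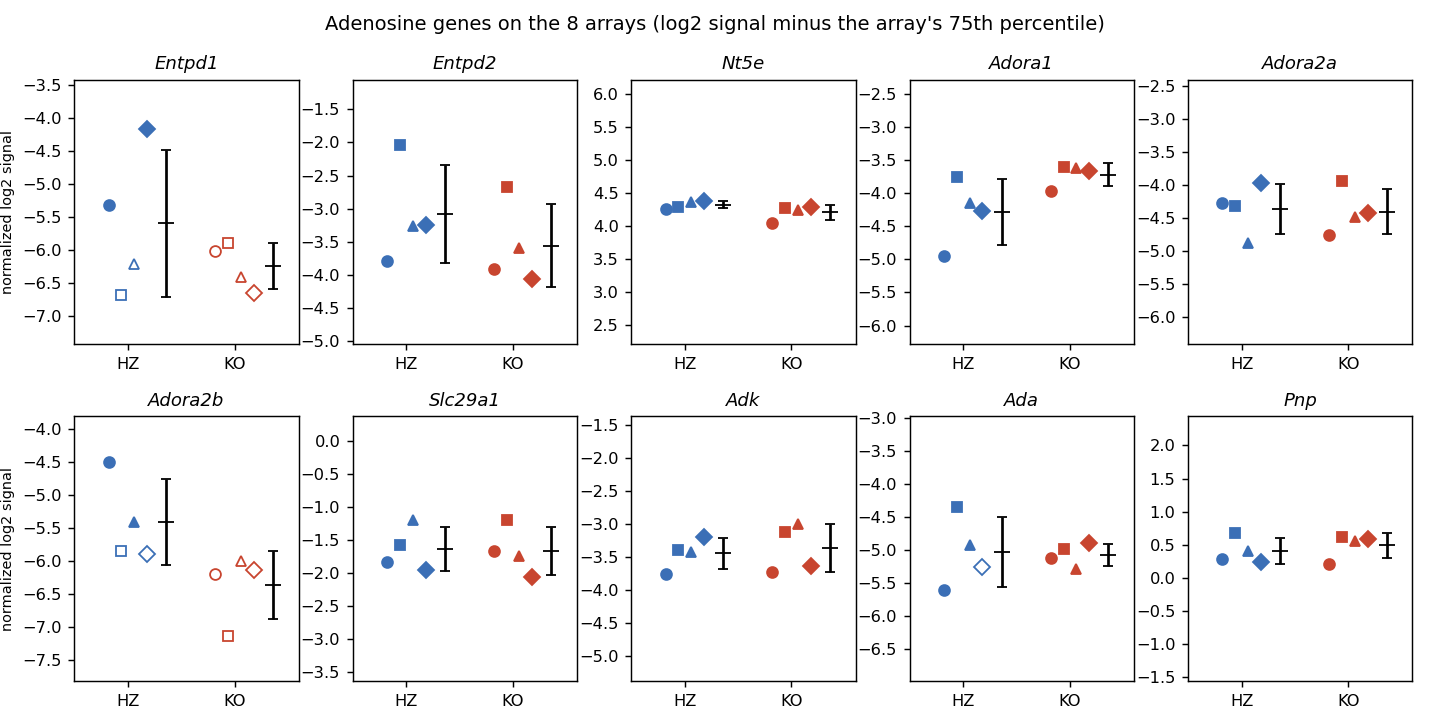
Normalized log2 signal of the 10 adenosine genes on each array (HZ blue, KO red; circle, square, triangle and diamond are replicates 1, 2, 3 and 4; open symbols were not well above background; the black bar is the mean with SD, n = 4). Every panel spans the same height on the log2 scale; the Nt5e arrays lie within 4.05 to 4.39, and Entpd1 and Adora2b were not well above background on any KO array.

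Of the tested members, Adora1 had the largest difference as reported, though Entpd2 had the larger one without HZ replicate 1 or KO replicate 2. Adora1 encodes the A1 receptor, which couples to Gi and lowers cAMP. Its signal was -4.96, -3.76, -4.14 and -4.27 on HZ replicates 1 to 4 and -3.97, -3.61, -3.62 and -3.67 on KO replicates 1 to 4. Most KO arrays lay above the HZ arrays, but HZ replicate 2 exceeded KO replicate 1, so the groups overlapped. The difference was 0.57 (standard error 0.24, 95% interval 0.023 to 1.11, limma unadjusted p = 0.0428, adjusted p = 0.597), and the KO array was higher in 4 of 4 numbered pairs. HZ replicate 1 was the lowest array. Without it the difference was 0.34, and with normexp background correction it was 0.26. Without HZ replicate 2 it was 0.74 (limma adjusted p = 0.286), past the looser threshold of the methods, a fold of 1.5 and adjusted p of 0.5. That fit called 1617 of 33616 tested probes at that threshold, against 357 of 34303 as reported. With the replicate numbers as a block the unadjusted p was 0.0126 and the adjusted p 0.361. The other 2 Adora1 probes were well above background on 1 array of each group and were not tested. Adora1 was 1 of 8 tested members at an unadjusted p under 0.05, a threshold that 8.17% of all tested probes passed. It missed that threshold with the methods' t-test, with dim probes kept and in 6 of the 8 fits with 1 array left out. It also missed it with the percentile taken only over probes detected everywhere (limma unadjusted p = 0.0519).

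Adora2a encodes a receptor that couples to Gs and raises cAMP. Its signal was -4.27, -4.32, -4.88 and -3.97 on the HZ arrays and -4.77, -3.94, -4.49 and -4.42 on the KO arrays, in replicate order, with the 2 groups interleaved. The difference was -0.046 (standard error 0.23, 95% interval -0.57 to 0.48), and it turned to 0.11 with quantile normalization. Adora2b, which encodes a receptor of lower affinity, was close to the limit of the array. Its signal was -4.49, -5.85, -5.41 and -5.89 on the HZ arrays, of which replicates 1 and 3 were well above background, and -6.19, -7.13, -5.99 and -6.14 on the KO arrays, where 0 were. Every KO array lay below every HZ array in measured signal (means -5.41 and -6.36), but 6 of the 8 values were not well above background, so Adora2b was left out of the test and no fold is given.

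Of the ectonucleotidases before CD73, Entpd2 could be tested and Entpd1 could not. Entpd1 encodes CD39, an NTPDase that takes ATP to AMP and is known from microglia and blood vessels. Its brighter probe gave -5.32, -6.68, -6.21 and -4.16 on the HZ arrays, with replicates 1 and 4 well above background, and -6.01, -5.90, -6.41 and -6.65 on the KO arrays, with 0 well above background. It was not tested, the groups overlapped, and no fold is given. A second Entpd1 probe was not well above background on any array. Entpd2 encodes NTPDase2, which prefers ATP and leaves ADP. Its signal was -3.79, -2.04, -3.26 and -3.25 on the HZ arrays and -3.91, -2.67, -3.60 and -4.07 on the KO arrays. Replicate 2 was highest in each group, and the groups overlapped. The difference was -0.48 (standard error 0.42, 95% interval -1.45 to 0.49, limma adjusted p = 0.764). The KO array was lower in 4 of 4 numbered pairs, by 0.12 to 0.82. The summed signal of 9 tested Müller glia markers was also highest on replicate 2 of each group (36.9 for HZ and 36.5 for KO, against 29.7 to 31.2 and 20.3 to 27.1 on the others), while the order of the other arrays differed from that of Entpd2. So was that of the 6 tested of 10 endothelial markers (3.34 for HZ and 2.18 for KO, against 1.04 to 1.66 and 1.14 to 1.32). The other 4, Cdh5, Tek, Tie1 and Emcn, were not well above background on any array. Kdr, Egfl7 and Flt1 were highest on replicate 2 of each group, and Kdr had the largest signal in that sum (1.29 on HZ replicate 2). Pecam1, Cldn5 and Esam were not, and Pecam1 was lowest on HZ replicate 2 (-3.16). Of the Müller glia markers, Clu and Aqp4 were lowest on HZ replicate 2. The part of either set of markers in the Entpd2 values was not tested. Blocked on the replicate number, the unadjusted p of Entpd2 was 0.0173 (adjusted 0.368). Without HZ replicate 2 the Entpd2 difference was -0.13, and when KO replicate 2 was left out it was -0.77. Normexp background correction gave -0.14.

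The genes of uptake and breakdown had differences close to 0. Slc29a1, the equilibrative nucleoside transporter gene, had a signal of -1.84, -1.57, -1.21 and -1.96 on the HZ arrays and -1.67, -1.20, -1.74 and -2.07 on the KO arrays. These ranges nearly coincided, and the difference was -0.026 (standard error 0.22, 95% interval -0.53 to 0.48). Adk, adenosine kinase, had a signal of -3.75, -3.39, -3.43 and -3.19 on the HZ arrays and -3.72, -3.12, -2.99 and -3.63 on the KO arrays. The difference was 0.075 (standard error 0.20, 95% interval -0.38 to 0.53), within the spread of either group.

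Ada, adenosine deaminase, was faint, with a signal of -5.60, -4.35, -4.93 and -5.25 on the HZ arrays, where 3 of 4 were well above background, and -5.12, -4.99, -5.29 and -4.89 on the KO arrays, where 4 of 4 were. The difference was -0.040 (standard error 0.25, 95% interval -0.61 to 0.53). Pnp, purine nucleoside phosphorylase, had a signal of 0.29, 0.68, 0.40 and 0.24 on the HZ arrays and 0.20, 0.61, 0.56 and 0.58 on the KO arrays. The difference was 0.086 (standard error 0.13, 95% interval -0.22 to 0.40). Pnp2 is a close relative of Pnp in the mouse genome, and whether its transcript also binds the Pnp probe was not tested. For Slc29a1, Adk, Ada and Pnp the limma adjusted p lay between 0.864 and 0.978. Expressed as a fold, the upper end of the Pnp interval was 1.32.

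Across the 8 tested members, KO means exceeded HZ means for 3 and lay under them for 5. The median of the differences was -0.033, against 0.0023 over all tested probes. Members are counted by gene, each by its tested probe with the highest mean. Counted in that way, the median over 14848 tested genes was 0.029, and 8438 of them had the higher mean in KO. The stricter threshold asked for a fold above 1.2 with a limma adjusted p below 0.05. It called 0 members and 0 of all tested probes (0%), where the methods' t-test called 2 probes and 2803 probes had a limma unadjusted p below 0.05. The looser threshold, a fold above 1.5 with an adjusted p below 0.5, accepts a list in which up to 50% of the calls may be false. It called 0 of 8 members and 1.04% of all tested probes. At an unadjusted p under 0.05 only Adora1 of the 8 passed, beside 8.17% of all tested probes. Complete separation of the groups was seen in 0 of the 8, beside 6.33% of all tested probes. With the methods' t-test 0 members passed an unadjusted p of 0.05. Counted by gene instead of by probe, limma gave 217 of 14848 tested genes at the looser threshold and 1381 at an unadjusted p under 0.05. Complete separation was seen in 1187 of these genes.

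**Figure D2:**
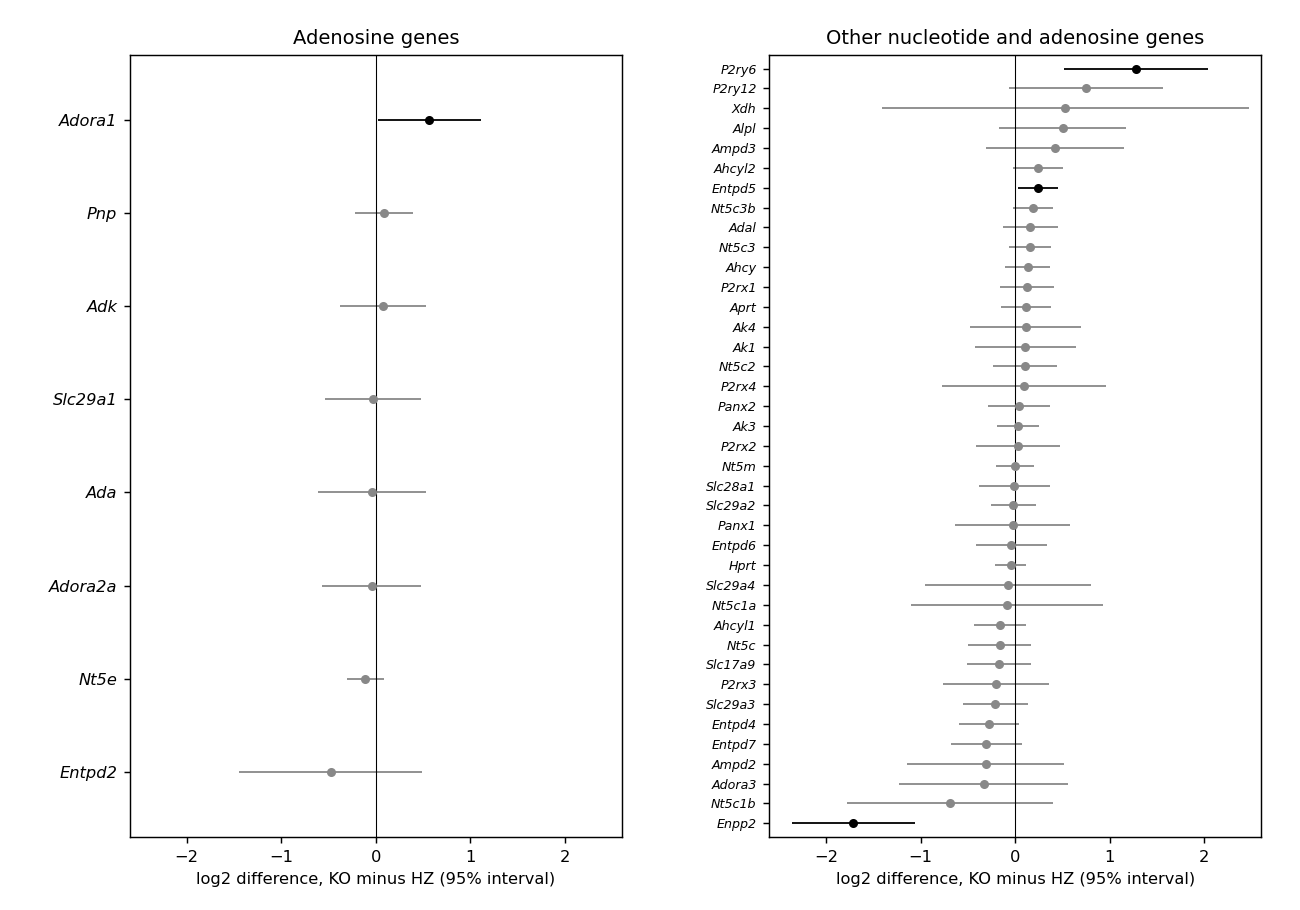
Log2 difference (KO minus HZ) with its 95% interval from limma for the 8 tested adenosine genes and for 39 of the 40 other tested genes of nucleotide and adenosine metabolism. Black marks an unadjusted p under 0.05 (Adora1; Enpp2, P2ry6 and Entpd5); the other intervals cross 0.

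Genes around this chain were taken from lists of ATP release and breakdown, purine turnover inside the cell, nucleoside transport and P2 receptors for ATP, ADP and UDP. Of these 61 genes 40 could be tested, with 20 on either side of 0 and a median difference of 0.012. Over all 14848 tested genes, 8438 had the higher mean in KO and the median was 0.029. By limma, 0 of the 40 passed the stricter threshold. The looser one called 2, Enpp2 lower and P2ry6 higher, beside 1.04% of all tested probes. P2ry6 met the filter on dim probes through the KO arrays, where it was brighter. At an unadjusted p of 0.05, 3 of the 40 passed, beside 8.17% of all tested probes. The third was Entpd5, which was picked out after its value was seen. The 16 tested genes of purine turnover inside the cell held 0 such genes, as did the 5 tested genes of nucleoside transport and the remaining adenosine receptor Adora3. Among the 15 P2 receptor genes 6 could be tested, and the other probes were too dim.

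Enpp2 showed the largest difference. It encodes autotaxin, a secreted enzyme best known for making lysophosphatidic acid from lysophosphatidylcholine, which also cleaves nucleotides. Its signal was -0.67, -1.39, -1.25 and -0.92 on the HZ arrays and -2.53, -2.31, -2.67 and -3.56 on the KO arrays. Every KO array lay below every HZ array. The difference was -1.71 (standard error 0.28, 95% interval -2.36 to -1.06, limma adjusted p = 0.287), or 3.27-fold lower. RPE is a known source of Enpp2, and the summed signal of 16 RPE markers was also lower in KO. It lay between 30.4 and 58.0 on the arrays labelled HZ and between 17.2 and 28.9 on those labelled KO. At the same threshold as Enpp2, 10 of the 16 were called, beside 1.04% of all tested probes. Rpe65, the retinoid isomerase of that tissue, was at -2.38. The HZ arrays had the same order for Enpp2 and the RPE sum, and both were lowest on KO replicate 4. That order rests on close sums for HZ replicates 3 and 4 (48.7 and 49.2). Ermn, the marker with the largest mean signal in that sum, was higher on HZ replicate 4, and its groups overlapped. Rdh5, Pmel and Ttr were also higher there, while Rpe65, Dct and Krt18 were higher on HZ replicate 3, unlike Enpp2. The order of the sum without Ermn was not tested. Among the KO arrays Enpp2 was highest on replicate 2 (-2.31), where the sum was 24.0, against 28.5 and 28.9 on replicates 1 and 3. The part of the RPE markers in the Enpp2 difference was not tested. Enpp2 no longer passed when HZ replicate 1 (adjusted p = 0.625), HZ replicate 3 (0.673) or KO replicate 3 (0.632) was left out, or with dim probes kept (0.571), while the difference stayed between -1.86 and -1.31 over all 18 alternatives.

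P2ry6 encodes a receptor for UDP, known from microglia. Its signal was -5.36, -5.06, -5.95 and -5.69 on the HZ arrays, where replicates 1 and 2 were well above background, and -3.77, -3.76, -4.29 and -5.14 on the KO arrays, where all were. KO replicate 4 lay below HZ replicate 2, so the groups overlapped. The difference was 1.28 (standard error 0.33, limma adjusted p = 0.434), and it was 0.31 with normexp background correction. It no longer passed the looser threshold there, with quantile normalization (adjusted p = 0.510), with dim probes kept (0.821), or when HZ replicate 1, 3 or 4 or KO replicate 1, 2 or 3 was left out (0.566 to 0.815). P2ry12, the ADP receptor used to recognize microglia, differed by 0.75 (standard error 0.35, adjusted p = 0.635) with 2 arrays of each group well above background. With the replicate number as a block P2ry12 passed the looser threshold (limma adjusted p = 0.494). Its unadjusted p was 0.124 there, against 0.0674 as reported, and the blocked fit called 1167 of 34303 tested probes at that threshold. The summed signal of the 12 microglia markers lay between 5.77 and 9.43 for HZ and between 6.28 and 10.3 for KO. Itgam, with the largest mean signal in that sum, was lower in KO (-0.52), and the other markers were higher. At the looser threshold 1 of 12 was called, beside 1.04% of all tested probes. The called marker was well above background on 1 HZ array and 3 KO arrays. Cx3cr1, the fractalkine receptor gene, had the largest difference (0.93, limma adjusted p = 0.540) and was not called. The part of these markers in the P2ry6 difference was not tested.

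**Figure D3:**
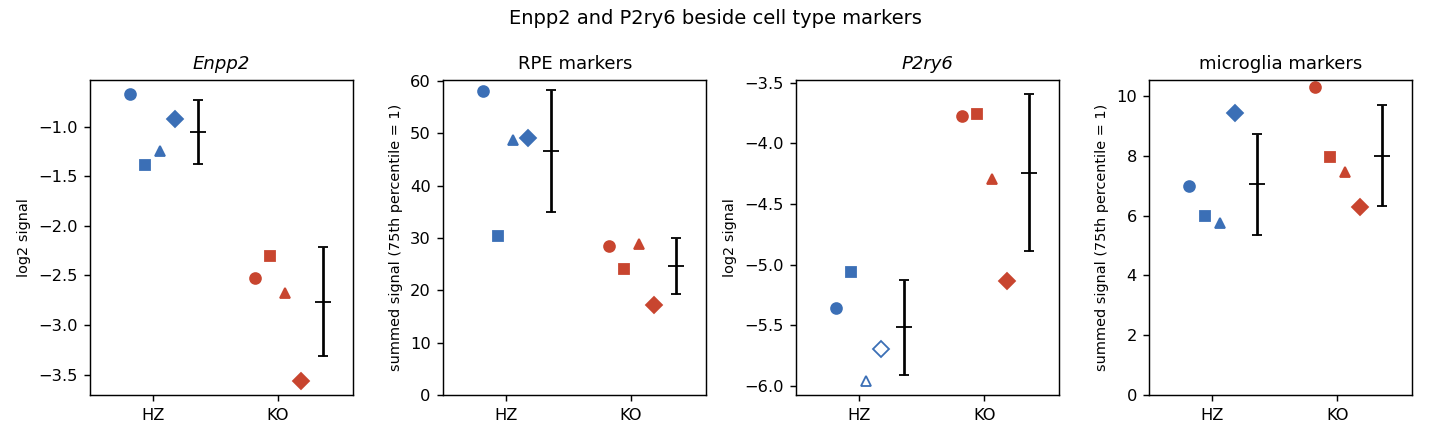
Normalized log2 signal of Enpp2 and P2ry6 and the summed linear signal of 16 RPE and 12 microglia markers on each array (symbols as in the plot of the 10 genes; for the sums, the 75th percentile of the array is 1 and the axis starts at 0; bars are mean and SD, n = 4). Enpp2 and the RPE sum are lower on every KO array than on any HZ array, while the microglia sums of the groups overlap. Itgam, with the largest mean signal in the microglia sum, had the lower mean in KO, unlike the other microglia markers.

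The other listed genes with the largest differences did not pass either threshold as reported. Nt5c1b, a cytosolic 5'-nucleotidase gene, differed by -0.69 (standard error 0.47), Xdh, which makes uric acid, by 0.53 (standard error 0.84), and Ampd3, an AMP deaminase gene, by 0.42 (standard error 0.32). All were dim, with 1 to 3 arrays of at least 1 group well above background. Xdh and Ampd3 met the filter on dim probes through the KO arrays, where all were well above background. Nt5c1b met it with 3 HZ arrays and 1 KO array. Xdh on HZ replicate 4 was -3.21 against -5.67 or lower on the other HZ arrays, none of which was well above background for it. Its difference was -0.014 without HZ replicate 1. Without HZ replicate 4 its difference was 1.41, taken against HZ values that were all close to background. That of Ampd3 was 0.16 when HZ replicate 1 was left out. It was 0.67 without HZ replicate 2, where Ampd3 passed the looser threshold (limma adjusted p = 0.325, unadjusted p = 0.0412). Adora3, the A3 receptor gene, differed by -0.33 (standard error 0.39), and by 0.022 when HZ replicate 1 was left out. Without HZ replicate 2 it differed by -0.61 and passed that threshold (limma adjusted p = 0.432), with an unadjusted p of 0.128. Without that array the looser threshold called 1617 of 33616 tested probes, against 357 of 34303 as reported. Alpl encodes tissue-nonspecific alkaline phosphatase, which like CD73 can turn AMP into adenosine. Its signal was 1.05, -0.012, 0.63 and 1.15 on the HZ arrays and 1.35, 0.73, 1.06 and 1.68 on the KO arrays. The KO array was higher in 4 of 4 numbered pairs and the groups overlapped. The difference was 0.50 (standard error 0.29, 95% interval -0.17 to 1.17, limma adjusted p = 0.686). With normexp background correction it was 0.70 and passed the looser threshold (limma adjusted p = 0.406), and without HZ replicate 2 it was 0.26. Blocked on the replicate number, Alpl had an adjusted p of 0.322. Entpd5, an NTPDase gene of the endoplasmic reticulum, differed by 0.24 (standard error 0.092, adjusted p = 0.582). A second tested Entpd5 probe differed by 0.27 (standard error 0.47, limma unadjusted p = 0.574). With the probes of each gene averaged, 2 of the 40 listed genes passed an unadjusted p of 0.05.

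The genes whose pattern over the 8 arrays was most like that of Nt5e, by Pearson's r among 14847 other tested genes, were 4933412O06Rik (0.960), Dync1h1 (0.958), Jakmip1 (0.954), Glipr1l2 (0.949, over 7 arrays, since its spot on HZ replicate 4 was an outlier) and Gm33951 (0.948). Dync1h1, the heavy chain of cytoplasmic dynein, was bright, with 5.14 on average for HZ and 4.91 for KO, and the others were dim, with means between -5.42 and -4.33 on the HZ arrays. Spearman's rank correlation lay between 0.786 and 1. These genes were picked for a high r, so its size is a description. All 5 had their lowest signal on KO replicate 1, as Nt5e did (well above background there only for Dync1h1), and without that array r was 0.882, 0.823, 0.803, 0.495 and 0.883 in the same order.

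**Figure D4:**
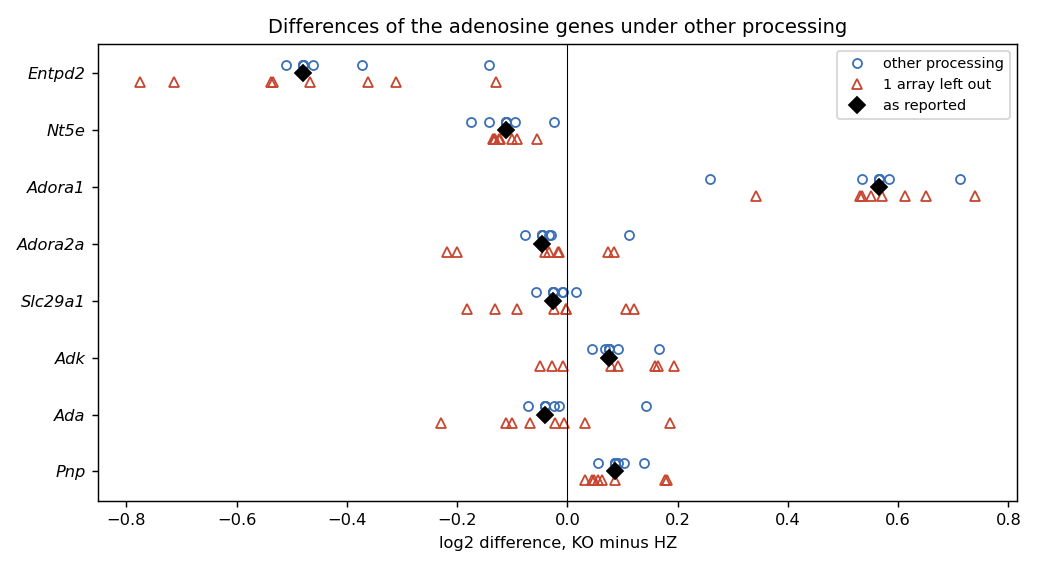
Log2 difference (KO minus HZ) of the 8 tested adenosine genes as reported (black diamond), under other processing (blue circles) and with 1 array left out (red triangles). Nt5e stays below 0, Adora1 above 0 and Entpd2 below 0 under each alternative, while Adora2a, Slc29a1, Adk and Ada fall on either side of 0.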

How the data were processed

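RNA of isolated photoreceptor cells was measured on 8 SurePrint G3 Mouse GE arrays. The authors deposited spot intensity values of Agilent Feature Extraction 10.7.1.1, background-subtracted, and a table of log2 values that GeneSpring had shifted to the 75th percentile. The latter were centred on each probe's median (column medians -0.065 to 0.20), and their differences matched those from the intensities up to a constant of 0.017.

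The log2 signal was shifted by each array's 75th percentile over 59305 non-control spots (882 to 1024 intensity units). Spots marked as outliers were dropped before averaging per probe. Tested probes were well above background on at least 4 arrays, with at least 3 values per group. RefSeq accessions named 32994 of 56605 probes (GRCm38.p6 table, used for names only). A gene is given by its tested probe with the highest mean. Groups were compared, two-sided, by lmFit and eBayes of limma 3.58.1 (R 4.3.3) with Benjamini-Hochberg adjustment over the 34303 tested probes. The fit was tested on simulated data. Plots used matplotlib 3.10.9.

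The methods give folds of 1.2 or 1.5 and q-values of 0.05 or 0.5; the stricter pair is stated for whole retina and none for these cells, so both pairs were used. Members and lists were chosen with earlier results of these data known. Named are the members, the 8 other listed genes with the largest difference, and the 5 genes most like Nt5e. Nothing says that replicates came from separate animals, so p-values measure the spread between these samples, and the number of arrays limits the precision. The replicate number, which is also the slide column, was checked as a pairing. Deviations from group means correlated with r of 0.16 to 0.34 in 4 of 4 same-numbered pairs, over 0.1 in each, and -0.34 to 0.12 otherwise. Deviations cancel out within a group, so a higher r in same-numbered pairs lowers r in the others, and the highest of those also passed 0.1. The check therefore cannot settle whether the samples were paired beyond sharing a slide column. The main fit was unpaired, with the number as a block among the alternatives. Probe sequences and positions were not analysed here. The 18 alternatives are given in the closing section. A listed gene and a marker are not reported here by name.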

Additional observations from a re-analysis of the deposited data

Results flagged for a closer look

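In 4 of 52 sets of 4 arrays, 1 array lay far outside the range of the rest, where chance gives about 2.6. KO replicate 1 was that array in 3 of them. Its Nt5e signal was 4.05 where the other KO arrays lay between 4.25 and 4.29, its Adora1 signal was -3.97 where they lay between -3.67 and -3.61, and its Pnp signal was 0.20 where they lay between 0.56 and 0.61. The genes picked for their likeness to Nt5e are not in that count. KO replicate 1 was far below the others in 4 of them, which their choice favours, and was not well above background for the last 3: Dync1h1 (4.28 against 5.04 to 5.20), Glipr1l2 (-7.25 against -5.51 to -5.28), Gm33951 (-5.62 against -4.75 to -4.66) and Jakmip1 (-6.50 against -5.36 to -5.16). The summed red blood cell markers were 0.33 on HZ replicate 1, where the other HZ arrays lay between 0.12 and 0.14. The causes of these values were not tested.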

How the results depend on the processing

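Over the 18 alternatives the median difference of the tested members lay between -0.10 and 0.10, within the spread between arrays, and 0 members passed the stricter threshold. At the looser threshold, the count of members ranged from 0 to 1 with 1 array left out, the 1 being Adora1 without HZ replicate 2 (0.74, adjusted p = 0.286), and was 0 in all others. At an unadjusted p of 0.05, 1 member passed as reported, 2 with a replicate block (Adora1 and Entpd2), 1 with dim probes kept (Adora2b in place of Adora1), 0 with the percentile taken only over probes detected everywhere, 0 with the methods' t-test and 0 to 1 with 1 array left out (0 without HZ replicate 1, 3 or 4 or KO replicate 2, 3 or 4). Of the other listed genes, 2 were called at the looser threshold as reported. There were also 2 with normexp background correction, where Alpl took the place of P2ry6. With a replicate block there were 3 (P2ry12 added), with quantile normalization 1 and with no filter on dim probes 0. With only probes well above background on all 8 arrays there was 1. With 1 array left out there were 0 to 4. The count was 0 without HZ replicate 1 or 3 or KO replicate 3. It was 1 without HZ replicate 4 or KO replicate 1 or 2, and 4 without HZ replicate 2. At an unadjusted p of 0.05 there were 3, against 7 with normexp background correction, 5 with a replicate block and 2 to 5 with 1 array left out. The block changed no call of a member at either pair of thresholds. Over all tested probes the looser threshold called 357 as reported, 41 with no filter on dim probes, 1167 with a replicate block, and 0 to 1617 with 1 array left out (0 without HZ replicate 1 or 3 or KO replicate 3, 1617 without HZ replicate 2), while the stricter one called 0 as reported, 17 with normexp background correction and 3 with a trended, robust eBayes. The causes of these changes were not tested. Signal over background leaves Adora2b and Entpd1 untested.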
